A study of Mus musculus with 3 samples.

Results

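CC chemokines are small secreted proteins that attract leukocytes through receptors of the Ccr family, which couple to inhibitory G proteins. Macrophages and stromal cells of the bone marrow make several of them, and in marrow they are known for drawing monocytes out of and into the tissue and for acting on osteoclast precursors. Most genes of the family lie in a cluster on mouse chromosome 11 and arose by duplication. The 10 genes described here were chosen by name (Ccl2, Ccl3, Ccl4, Ccl5, Ccl6, Ccl7, Ccl8, Ccl9, Ccl12 and Ccl24), out of 27179 genes in the deposited table. Of these 10, 7 reached a mean level of at least 50 over the libraries, the filter used for counts of genes, as did 11067 genes in all. Ccl8, Ccl12 and Ccl24 stayed below it.

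Wild-type mouse bone marrow stromal cells (mBMSCs) were cultured at 3% oxygen and treated for 3 days with extracellular vesicles, the membrane particles that cells shed, recovered from bone marrow plasma. In the Ocn-EV group the donors carried the CAGS-Snorkel transgene together with Ocn-Cre, a Cre driver of mature osteoblasts. In the Prx1-EV group they carried CAGS-Snorkel with Prx1-Cre, a driver of limb mesenchyme and the cells derived from it. In the All-EV group, which served as control, the donors were wild-type (WT). Donors were C57BL/6N mice of 6 months, and marrow plasma of 5 mice (2 male, 3 female) was pooled into 1 sample per group. An HA-antibody bead column is named for all groups, and the way it retained vesicles of mice lacking the transgene is not stated in the labels. Each group is 1 culture and 1 library, so no difference below has a replicate check, no p-value is given, and a difference between treatments and a difference between any pair of cultures cannot be told apart.

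Levels are the deposited normalised read counts. The libraries held 14233978 (Ocn-EV), 17269204 (Prx1-EV) and 15558165 (All-EV) reads assigned to genes. Bracketed ranges are 95% intervals from the numbers of reads and cover counting error only. All 15 macrophage markers were present in every library beside 13 stromal markers, although the cells are labelled stromal. Summed macrophage marker levels were 152505 (Ocn-EV), 131909 (Prx1-EV) and 239141 (All-EV), and summed stromal marker levels 79088, 52803 and 15171 in the same order. Compared with All-EV, 5 macrophage markers were past 2-fold upward and 2 downward in Ocn-EV, and 2 and 2 in Prx1-EV, with median log2 ratios of 0.68 and 0.44. Lyz2, the lysozyme gene, made up much of each sum, at 51741 in Ocn-EV and 40548 in Prx1-EV, against 140306 in All-EV. Of 11 stromal markers at the filter, 7 were past 2-fold upward in Ocn-EV and 4 in Prx1-EV, and 0 downward. Over all 11067 genes at the filter, 6.27% were at least 2-fold higher and 4.20% lower with Ocn-EV, and 5.12% and 3.66% with Prx1-EV. Neutrophil markers summed to 851 in Ocn-EV and 1015 in Prx1-EV, against 9038 in All-EV, mostly as Mmp8, with Ly6g, Elane, Ltf and Retnlg at 0 reads throughout. Megakaryocyte markers summed to 1848 in Ocn-EV and 1624 in Prx1-EV, against 10632 in All-EV, mostly as Pf4, with Gp9 at 0 reads. The part of these cell types in the chemokine differences was not tested. In such bulk samples, fewer cells of a type and less RNA per cell cannot be told apart.

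With vesicles of the Ocn-Cre or Prx1-Cre mice, 4 chemokine genes (Ccl2, Ccl5, Ccl6 and Ccl7) were at least 2-fold lower than with vesicles of WT mice. Ccl3 and Ccl4 were higher in both, by less than 2-fold as deposited. Ccl9 was lower by that margin with Prx1-EV and close to the control level with Ocn-EV. The 10 genes together took 0.0236% (0.0228 to 0.0244) of reads in the Ocn-EV library and 0.0149% (0.0144 to 0.0155) in the Prx1-EV library, against 0.0559% (0.0548 to 0.0571) in the All-EV library. Their summed level was 3477 in Ocn-EV and 2249.8 in Prx1-EV, against 9850.2 in All-EV. Most of that gap was Ccl6, since the other 9 genes summed to 2413 in Ocn-EV and 1616 in Prx1-EV, against 2973 in All-EV.

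Counts of genes use log2((a + 1)/(b + 1)), where a and b are levels and the pseudocount of 1 pulls low genes toward 0. By that measure 4 of the 7 genes at the filter were at least 2-fold lower with Ocn-EV than with All-EV, where 4.20% of all genes tested were, and 0 were at least 2-fold higher, where 6.27% were. With Prx1-EV 5 of 7 were at least 2-fold lower than with All-EV, against 3.66% of all genes, and 0 were higher, against 5.12%. Both comparisons share the All-EV library. Ccl5 and Ccl7 passed the filter through their All-EV level alone, so their being lower with the other vesicles was partly built into passing, and the counts that include them support nothing. Leaving them aside, Ccl2 and Ccl6 were at least 2-fold lower with Ocn-EV, and Ccl2, Ccl6 and Ccl9 with Prx1-EV. If every library is scaled to the same total, the median log2 ratio of all genes tested moves to 0.24 for Ocn-EV, against −0.02 as deposited, and to 0.22 for Prx1-EV, against 0.00, and higher genes make up 81.8% and 79.6% of the 2-fold genes, against 59.9% and 58.3% as deposited.

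**Figure D1:**
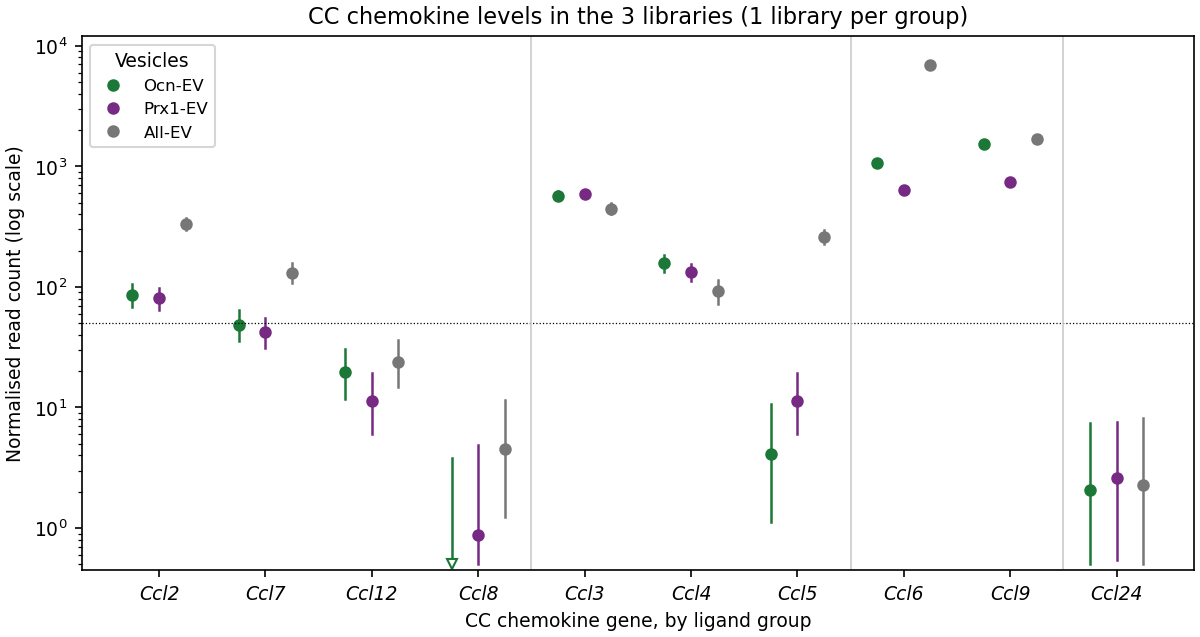
Normalised read count (log scale) of each CC chemokine gene, by ligand group, in Ocn-EV, Prx1-EV and All-EV (points, 1 library each) with 95% counting intervals (bars). The dotted line is the filter of 50, and the open triangle marks 0 reads, drawn at the lower edge. Ccl2, Ccl5, Ccl6 and Ccl7 stand clearly above the other libraries in All-EV, whereas Ccl3 and Ccl4 stand slightly below them.

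The monocyte chemoattractant group comprises Ccl2, Ccl7 and Ccl12, ligands of Ccr2 that call monocytes to a tissue, and Ccl8, which in mice acts on Ccr8. Ccl2 stood at 85.9 with Ocn-EV and 80.3 with Prx1-EV, against 333 with All-EV. Ocn-EV cultures had 3.87-fold less of it (3.02 to 5.00) and Prx1-EV cultures 4.15-fold less (3.27 to 5.30). Ccl7 stood at 48.7 with Ocn-EV and 41.9 with Prx1-EV, against 131 with All-EV. The Ocn-EV and Prx1-EV libraries thus lay close together and both below the All-EV control for these genes. Ccl7 was 2.70-fold lower with Ocn-EV (1.91 to 3.87) and 3.14-fold lower with Prx1-EV (2.22 to 4.49). Its log2 ratio for Ocn-EV was −1.41 as deposited and −0.78 once the trend of ratios on transcript length and GC content was removed, which ends its place among the 2-fold genes.

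Ccl2 and Ccl7 are neighbours, at chr11:82035577-82037452 and chr11:82045712-82047525 (GRCm38.p6, plus strand), 8260 bases apart, and each has 3 exons. Their coding sequences were 72.1% identical over 287 aligned bases, the highest value among the 45 pairs of these genes. Within a library the ratio of Ccl2 to Ccl7 reads does not depend on scaling. It was 1.77 (1.22 to 2.58) in the Ocn-EV library and 1.92 (1.34 to 2.78) in the Prx1-EV library, against 2.53 (2.04 to 3.17) in the All-EV library. These intervals overlap.

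Ccl12 (chr11:82101845-82103399) and Ccl8 (chr11:82115185-82116799), the next members along the chromosome, were near the limit of detection. Ccl12 had 19 reads in Ocn-EV and 13 in Prx1-EV, against 21 in All-EV. Its ratio to All-EV was 0.828 (0.421 to 1.62) for Ocn-EV and 0.477 (0.220 to 0.999) for Prx1-EV. Ccl8 had 0 reads in Ocn-EV, which allows a level of up to 3.11, and 1 read in Prx1-EV, against 4 in All-EV. A difference in Ccl8 was not detectable at this depth. Ccr2 itself had 3 reads in Ocn-EV and 9 in Prx1-EV, against 18 in All-EV, and Ccr8 had 0 reads in every library.

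Ccl3 and Ccl4 are inflammatory chemokines of macrophages, and Ccl3 is a ligand of Ccr1. Ccl3 stood at 572 with Ocn-EV and 589 with Prx1-EV, against 446 with All-EV. The ratio to All-EV was 1.28 (1.12 to 1.46) for Ocn-EV and 1.32 (1.16 to 1.5) for Prx1-EV. Ccl4 stood at 157 with Ocn-EV and 133 with Prx1-EV, against 91.7 with All-EV. For Ccl4 the ratio was 1.72 (1.30 to 2.28) with Ocn-EV and 1.45 (1.10 to 1.92) with Prx1-EV. These differences exceeded counting error and stayed under 2-fold as deposited. The log2 ratio of Ccl3 was 0.36 for Ocn-EV and 0.40 for Prx1-EV as deposited. It rose to 0.61 and 0.62 under equal library totals, and to 0.94 and 0.97 with the trend on length and GC content taken out. Those values lay above the counting intervals and still under 2-fold. Ccl4 passed 2-fold with Ocn-EV under equal library totals (log2 1.03) and in both comparisons with the trend on length and GC content taken out (1.35 for Ocn-EV and 1.11 for Prx1-EV).

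Ccl3 (chr11:83647843-83649378, minus strand) and Ccl4 (chr11:83648624-83664683, plus strand) overlap by 755 bases in RefSeq (GRCm38.p6), and whether strand was used in counting is not stated in the labels, so reads in the shared stretch cannot be assigned with certainty. No stretch of 50 bases of the Ccl3 or Ccl4 transcript occurred in a transcript of another gene. Within libraries, Ccl3 had 3.63 reads per Ccl4 read in Ocn-EV (3.03 to 4.37) and 4.44 in Prx1-EV (3.72 to 5.33), against 4.86 in All-EV (3.82 to 6.26).

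Ccl5, also named RANTES (chr11:83525778-83530518, minus strand), binds Ccr1 and Ccr3, among others, and is made by T cells, macrophages and stromal cells during inflammation. It had 4 reads (level 4.14) in Ocn-EV and 13 reads (11.3) in Prx1-EV, against 230 reads (260.3) in All-EV. This was the largest gap among the 7 genes at the filter, 62.8-fold lower with Ocn-EV (24.2 to 233) and 23.0-fold lower with Prx1-EV (13.2 to 43.8). Among the 11067 genes tested, Ccl5 had the rank 5 from the lowest ratio with Ocn-EV and the rank 10 with Prx1-EV. Ccl5 passed the filter through its All-EV level alone, so its place among them was partly built into passing and supports nothing. Between Ocn-EV and Prx1-EV its ratio of 0.365 had an interval of 0.0867 to 1.18, so those libraries could not be told apart.

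Markers of T and natural killer cells, another known source of Ccl5, had few reads. Of 11 of their markers, Cd3e, Cd3d, Cd8a and Gzma had 0 reads in every library. The list summed to 95.3 in Ocn-EV and 113 in Prx1-EV, mostly as Cd4, against 34.0 in All-EV. In All-EV Cd4 stood at 14.7, Lck at 10.2 and Trbc2 at 5.66. Trbc2 had 5 reads there and 0 in Ocn-EV and Prx1-EV. A long noncoding RNA gene, Gm32650, spans Ccl5 in RefSeq and is not analysed here. Per kilobase of transcript, the level of Ccl5 took place 8 of the 10 genes in Ocn-EV and place 7 in Prx1-EV, against place 4 in All-EV.

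Ccl6 and Ccl9 form a group of rodent chemokines with a long amino-terminal part that bind Ccr1. They are made by macrophages, and Ccl9 is also made by osteoclasts and supports them. The genes lie next to each other on chromosome 11, 9250 bases apart, both on the minus strand and both with 4 exons (Ccl9 at chr11:83572917-83578636 and Ccl6 at chr11:83587886-83593087). Their coding sequences were 70.7% identical over 341 aligned bases. The 250 bases before the RefSeq transcription start are shown for this pair, whose levels differed between libraries in unlike ways, and for Ccl3, which was higher than in All-EV. Sequences are from RefSeq (GRCm38.p6), 5′ to 3′ along the gene, and capitals mark every match to the motifs described next.
Ccl6, chr11:83593088-83593337, minus strand: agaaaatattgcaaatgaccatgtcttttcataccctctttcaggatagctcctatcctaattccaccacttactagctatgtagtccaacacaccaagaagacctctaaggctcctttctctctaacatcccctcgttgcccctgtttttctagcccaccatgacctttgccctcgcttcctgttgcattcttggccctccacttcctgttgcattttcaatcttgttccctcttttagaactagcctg
Ccl9, chr11:83578637-83578886, minus strand: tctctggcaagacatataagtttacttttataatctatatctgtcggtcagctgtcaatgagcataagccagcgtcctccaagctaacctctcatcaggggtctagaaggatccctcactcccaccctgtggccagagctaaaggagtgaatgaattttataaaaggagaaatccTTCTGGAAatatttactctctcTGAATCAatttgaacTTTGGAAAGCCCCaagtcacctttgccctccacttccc
Ccl3, chr11:83649379-83649628, minus strand: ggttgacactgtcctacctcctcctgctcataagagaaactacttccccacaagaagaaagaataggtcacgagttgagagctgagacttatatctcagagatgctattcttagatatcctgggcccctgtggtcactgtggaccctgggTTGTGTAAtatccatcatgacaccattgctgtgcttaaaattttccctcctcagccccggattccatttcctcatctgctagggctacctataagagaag

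The windows were searched on both strands for the kappaB motif, the AP-1 motif (TGANTCA), the C/EBP motif (TTNNGNAA), the interferon element and the STAT motif (TTCNNNGAA). The Ccl9 window held a kappaB match from base −35 to −26, an AP-1 match from −53 to −47 and C/EBP matches from −75 to −68 and from −38 to −31, counted back from the start site, and the last of these overlaps the kappaB match. The Ccl6 window held no match to any of the 5 motifs, and the Ccl3 window held 1 C/EBP match from −100 to −93. Over 32851 promoter windows of the same length in the table, 7.25% held a kappaB match, 6.75% an AP-1 match, 36.8% a C/EBP match, 2.98% an interferon element and 7.02% a STAT match. With the first transcribed bases included, a stretch of the Ccl6 sequence near its start aligned to a stretch of the Ccl9 sequence with 59 identical of 74 positions. Promoter sequence was at hand for 5 of the 10 genes, and the windows of Ccl8 and Ccl12, the other members covered, held no match. A match describes letters in the window, and its absence says nothing about the factor.

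Ccl6 was the most abundant CC chemokine transcript of the control. It stood at 1064 with Ocn-EV and 634 with Prx1-EV, against 6877 with All-EV. The control level exceeded that of Ocn-EV 6.46-fold (6.05 to 6.91) and that of Prx1-EV 10.8-fold (10 to 11.7). Ccl6 was 1.68-fold higher with Ocn-EV than with Prx1-EV (1.52 to 1.85). The noncoding gene E230016K23Rik spans Ccl6, with 5 reads in Ocn-EV and 0 in Prx1-EV, against 5 in All-EV.

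Ccl9 behaved otherwise. It stood at 1523 with Ocn-EV and 746 with Prx1-EV, against 1681 with All-EV. Only Prx1-EV was far from the control, 2.25-fold lower (2.07 to 2.45), a log2 ratio of −1.17 that became −0.95 under equal library totals and so left the 2-fold genes. Ocn-EV gave a level 1.10-fold lower as deposited (1.03 to 1.19), but slightly higher under equal totals (log2 0.11) and with the trend on length and GC content taken out (0.05), so no direction can be given. Of the 2957 stretches of 50 bases in the Ccl9 transcript, 59 (2.00%) occur in transcripts of other genes, and none did for the other 9 genes.

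The ratio of Ccl6 to Ccl9 reads within a library showed the divergence of the pair without any scaling. It was 0.699 (0.645 to 0.757) in the Ocn-EV library and 0.850 (0.769 to 0.940) in the Prx1-EV library, against 4.09 (3.87 to 4.33) in the All-EV library. Osteoclast markers, of interest because osteoclasts make Ccl9, were mixed. The osteoclast list summed to 9945 in Ocn-EV and 11471 in Prx1-EV, against 14094 in All-EV, with Calcr and Dcstamp at 0 reads in every library. Of its 3 genes at the filter, 2 were at least 2-fold lower than in All-EV in both comparisons. Over all genes tested, 4.20% were lower by that margin with Ocn-EV and 3.66% with Prx1-EV, and with 3 genes nothing is read from this count.

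Ccl24, a ligand of Ccr3 that attracts eosinophils and the only gene of the set on chromosome 5 (chr5:135569935-135573123, minus strand), had 2 reads in Ocn-EV and 3 in Prx1-EV, against 2 in All-EV, too few to compare. Its receptor Ccr3 had 7 reads in Ocn-EV and 6 in Prx1-EV, against 7 in All-EV. Eosinophil peroxidase (Epx) had 0 reads in every library.

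**Figure D2:**
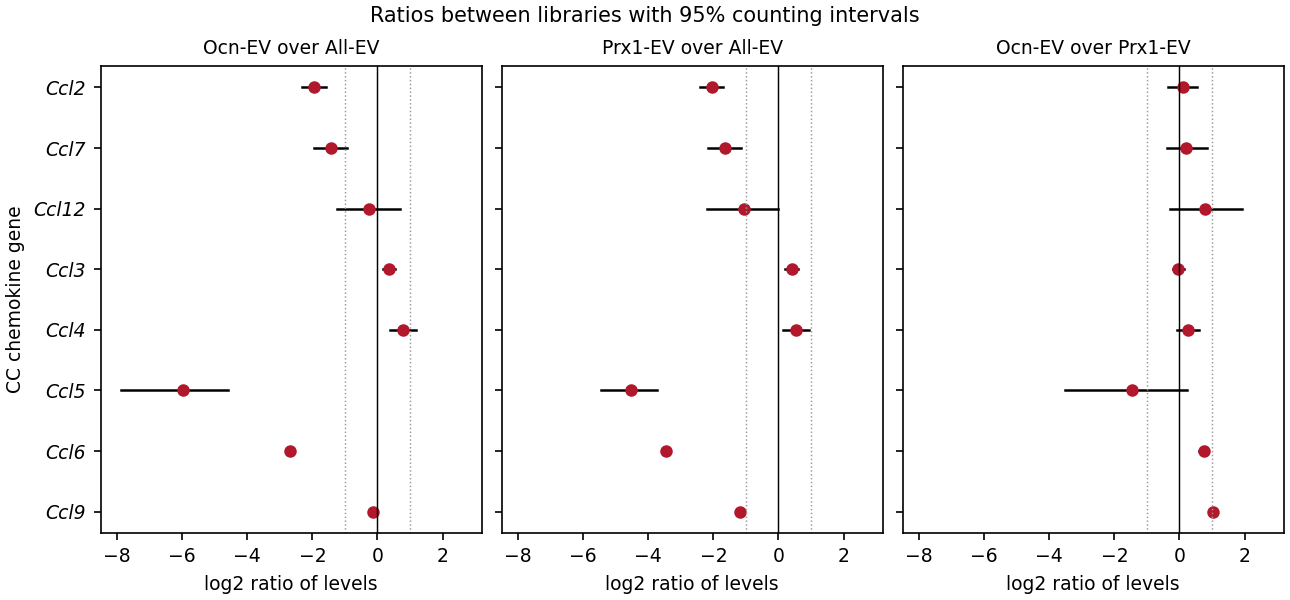
Log2 ratio of levels, without pseudocount, for 8 CC chemokine genes in Ocn-EV over All-EV, Prx1-EV over All-EV and Ocn-EV over Prx1-EV (points), with 95% counting intervals (bars, for Ccl6 and Ccl9 narrower than the points). Dotted lines mark 2-fold. Ccl5 lies farthest to the left in the comparisons with All-EV, and Ccl9 differs between them.

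These shifts changed which gene dominated the family. Ccl6 held 30.6% (29.1 to 32.2) of the reads of the 10 genes in the Ocn-EV library and 28.2% (26.5 to 30.0) in the Prx1-EV library, against 69.8% (68.8 to 70.8) in the All-EV library. Ccl9 held 43.8% (42.1 to 45.5) in the Ocn-EV library and 33.2% (31.3 to 35.0) in the Prx1-EV library, against 17.1% (16.3 to 17.9) in the All-EV library. Ccl3 held 16.4% (15.2 to 17.7) in the Ocn-EV library and 26.2% (24.5 to 27.9) in the Prx1-EV library, against 4.53% (4.10 to 4.98) in the All-EV library. Shares of a whole depend on each other, and a fall of Ccl6 alone raises the rest.

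**Figure D3:**
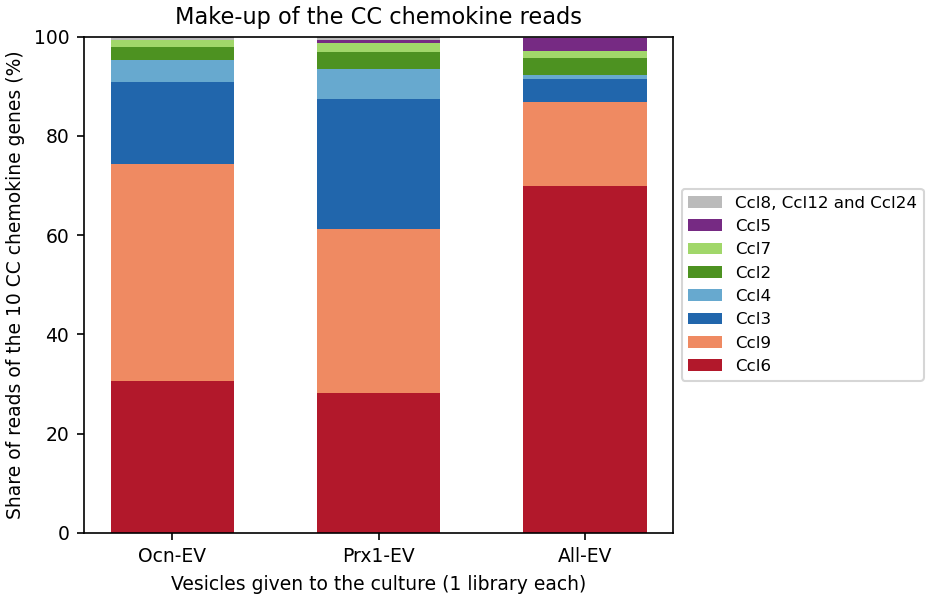
Share of the reads of the 10 CC chemokine genes (%) held by each gene in Ocn-EV, Prx1-EV and All-EV (stacked bars, 1 library each). Ccl6 fills 30.6% of the Ocn-EV bar and 28.2% of the Prx1-EV bar, against 69.8% of the All-EV bar.

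Read shares favour long transcripts, and Ccl9 has the longest, at 3006 bases against 511 for Ccl8, the shortest. Per kilobase of the longest coding transcript, Ccl3 had the highest level in Ocn-EV at 746, followed by Ccl6 at 739 and Ccl9 at 507. The first of these pairs did not differ beyond counting error (ratio 1.01, 0.909 to 1.12). In Prx1-EV the order was Ccl3 at 769, Ccl6 at 440.4, Ccl9 at 248 and Ccl4 at 201, and each step exceeded counting error. In All-EV the level of Ccl6 per kilobase was 4776, and Ccl3 at 582, Ccl9 at 559 and Ccl5 at 489 followed. The step from Ccl6 to Ccl3 was 8.20-fold (7.41 to 9.11), while Ccl3 and Ccl9 (1.04, 0.929 to 1.16) and Ccl9 and Ccl5 (1.14, 0.994 to 1.32) did not differ beyond counting error. Ccl2, Ccl7 and Ccl12 lay lower, between 36.6 and 106 per kilobase in Ocn-EV, 21.1 and 98.7 in Prx1-EV, and 44.3 and 409 in All-EV.

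The Ocn-EV and Prx1-EV libraries differed little from each other, and Ccl9 was among the genes that did. Of the 7 genes at the filter, 1 (Ccl9) was at least 2-fold higher with Ocn-EV than with Prx1-EV, where 0.325% of all genes tested were, and 0.190% of all genes were at least 2-fold lower. Ccl5 is past that line by its ratio, but it rests on 4 against 13 reads, its interval holds equality and it passed the filter through All-EV, so it is not counted as a gene that differed. Ccl9 was 2.04-fold higher with Ocn-EV (1.88 to 2.22). When the filter is raised to a mean of 200, leaving 8180 genes, 6 (0.0733%) reached 2-fold in favour of Ocn-EV. These were Ibsp, Ccn5, Col11a1, Thbs2, Txnip and Ccl9. The log2 ratio of Ccl9 (1.03) was the smallest of these 6, and that of Ccl6 was 0.75. In favour of Prx1-EV 2 (0.0244%) reached it, Ighg2b and Saa3. Ibsp, Ccn5 and Col11a1 passed this filter through Ocn-EV alone and Ighg2b through Prx1-EV alone, so their differences were partly built into passing. Saa3 passed it through All-EV alone, at 4.14 with Ocn-EV and 34.9 with Prx1-EV, against 1538 with All-EV. Ccl2, Ccl3, Ccl4 and Ccl7 had intervals that held equality between these libraries.

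**Figure D4:**
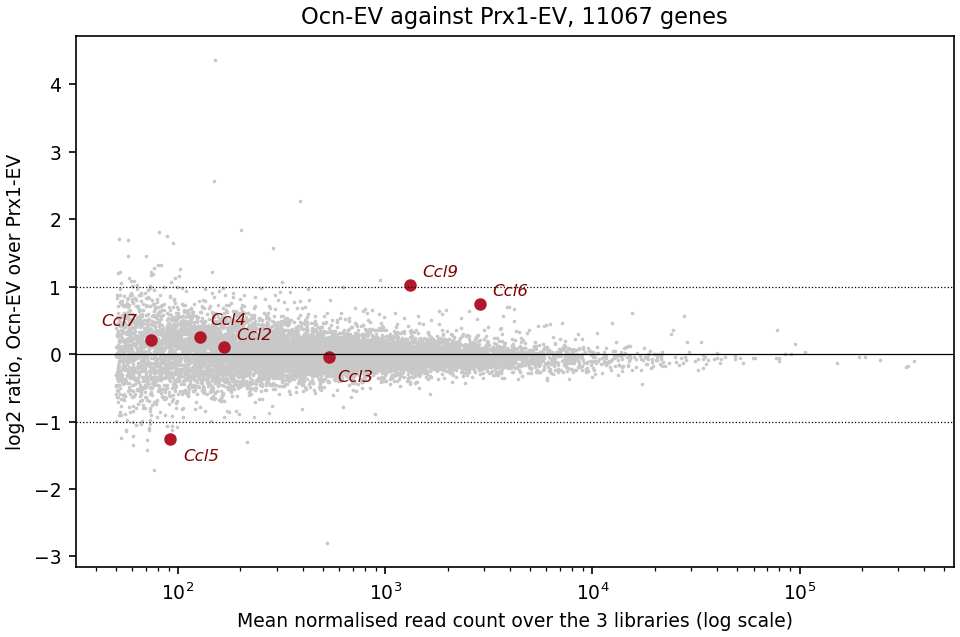
Log2 ratio of Ocn-EV over Prx1-EV against mean normalised read count over the 3 libraries (log scale) for 11067 genes (grey points), with 7 CC chemokine genes in red and 2-fold marked by dotted lines. Ccl9 lies just above the upper line, Ccl6 between the lines, and Ccl5, with few reads in these libraries, below the lower line.

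Among the receptors of these ligands, Ccr4, Ccr6 and Ccr8 had 0 reads in every library. Ccr1, the receptor of Ccl3, Ccl5, Ccl6 and Ccl9, stood at 713 with Ocn-EV and 655 with Prx1-EV, against 2045 with All-EV, which is 2.87-fold lower (2.62 to 3.13) and 3.12-fold lower (2.87 to 3.40).

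Atypical receptors bind chemokines without the usual G protein signal. Ccrl2, a related receptor on activated macrophages and neutrophils that holds chemerin at the cell surface, stood at 564 with Ocn-EV and 503 with Prx1-EV, against 2205 with All-EV, 3.91-fold lower (3.55 to 4.30) and 4.38-fold lower (3.99 to 4.81). Ackr3, a scavenger of Cxcl12, stood at 78.7 with Ocn-EV and 55.8 with Prx1-EV, against 44.1 with All-EV. Pitpnm3, described in human cancer cells as a receptor for a CC chemokine, stood at 174 with Ocn-EV and 147 with Prx1-EV, against 224 with All-EV. Neither of these last genes was 2-fold apart. Ackr2, which clears inflammatory CC chemokines, had 13 reads in Ocn-EV and 4 in Prx1-EV, against 2 in All-EV.

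**Figure D5:**
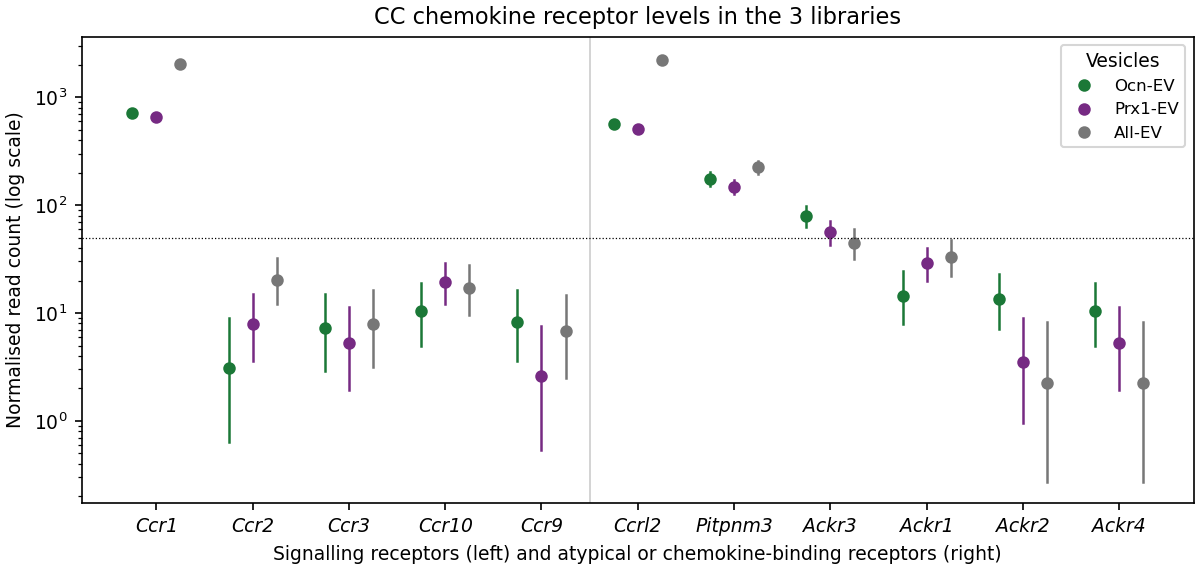
Normalised read count (log scale) of 5 CC chemokine receptors and of 6 atypical or chemokine-binding receptors, in Ocn-EV, Prx1-EV and All-EV (points, 1 library each) with 95% counting intervals (bars). The dotted line is the filter of 50. Ccr1 and Ccrl2 are highest in All-EV.

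The other 11 CC ligand genes were all under the filter, and 6 of them (Ccl1, Ccl11, Ccl19, Ccl20, Ccl21a and Ccl26) had 0 reads in every library. Ccl25 and Ccl27a, homeostatic chemokines of gut and skin, had 40 and 38 reads in Ocn-EV and 56 and 30 in Prx1-EV, against 44 and 41 in All-EV. Ccl17, Ccl22 and Ccl28 had at most 5 reads in a library.

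In a list of 20 genes of receptor signalling, 1 was at least 2-fold higher and 2 lower in each comparison with All-EV (medians 0.07 for Ocn-EV and 0.00 for Prx1-EV). Over all genes tested, 6.27% were higher and 4.20% lower with Ocn-EV, and 5.12% and 3.66% with Prx1-EV, and with 20 genes nothing is read from these counts about the list. Rgs1, which ends G protein signalling, stood at 1345 with Ocn-EV and 1151 with Prx1-EV, against 2889 with All-EV. The leukocyte GTPase Rac2 stood at 945 with Ocn-EV and 909.9 with Prx1-EV, against 2089 with All-EV, whereas Elmo1, part of a Rac activator, stood at 1323 and 1309, against 609. Among 13 tested genes that cut or bind chemokines, 2 were higher and 4 lower with Ocn-EV, and 2 higher and 3 lower with Prx1-EV (medians −0.22 and −0.11). The lower genes included the proteases Mmp9 (39.3 and 52.3, against 2865) and Mmp12 (80047 and 87875, against 286208) and the granule proteoglycan Srgn (845 and 753, against 2805), given for Ocn-EV and Prx1-EV, against All-EV. Versican (Vcan), a chemokine-binding proteoglycan of the matrix, was higher, at 644 and 705, against 179.

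Of 20 transcription factors known to act on chemokine genes, 1 was higher and 1 lower by 2-fold with Ocn-EV, and 1 higher and 2 lower with Prx1-EV (medians 0.10 and 0.16). Nothing is read from these counts either, beside the same shares over all genes tested. Relb, an NF-kB subunit that is itself induced by NF-kB, stood at 328 with Ocn-EV and 328 with Prx1-EV, against 939 with All-EV. Of 7 genes for mRNA decay and stability factors, Zfp36l1, which directs decay of mRNAs with AU-rich elements, was higher, at 1763 with Ocn-EV and 1654 with Prx1-EV, against 375 with All-EV, and the other 6 were not 2-fold apart.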

How the data were processed

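Messenger RNA was sequenced from 3 cultures, 1 library per group, with groups taken from the labels. The authors deposited 1 normalised signal value per gene and library. Per the submitters' processing notes, the tools were DESeq2 2.11.40.8, featureCounts 2.0.3, HISAT2 2.2.1, Trimmomatic 0.38.1 and FastQC 0.74, with the build mm10, and their settings and use of strand are not given in the sources used here. Divided by what 1 read is worth (1.04 in Ocn-EV, 0.872 in Prx1-EV and 1.13 in All-EV), 100% of the values came out whole to within 1e-06, and these whole reads were used for intervals. Symbols and positions came from RefSeq (GRCm38.p6, the same build as mm10), matching 25275 of 27179 identifiers. Transcript length, exons and strand came from GENCODE vM21, with the longest coding transcript per gene.

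Counts of genes covered those averaging 50 or more over the libraries, with 2-fold as threshold. Intervals of ratios and shares are Clopper-Pearson intervals (SciPy 1.17.1) on recovered reads. No molecular identifiers are named, and reads may be copies of 1 molecule, so intervals and floors cover counting error only. A count of 0 was given a floor of 3 reads. An exact binomial test of reads (two-sided, Benjamini-Hochberg adjusted p at most 0.05) compares 2 libraries and not the conditions. Against All-EV it called 7177 genes for Ocn-EV and 7119 for Prx1-EV, and it called 2872 between Ocn-EV and Prx1-EV. Alternatives were pseudocounts of 0.5 and 5, filters of 10, 200 and none, equal library totals, a threshold of 1.5-fold and removal of the trend of ratios on transcript length and GC content. Calculations were tested on simulated data. Coding sequences were aligned with Biopython 1.88.

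The members, the gene lists and the rule for named genes were chosen with earlier results of these data known. By that rule all members, receptors and other ligands at the filter, and up to 4 genes per pathway list at least 2-fold apart in the same direction from All-EV were named, with the 3 genes nearest in pattern to each member 2-fold apart from All-EV in both comparisons. Ccr2, Ccr3, Ackr2, Ccl25, Ccl27a, markers and the genes named between Ocn-EV and Prx1-EV were named after their values were seen. Some genes that the rule names are not reported here.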

Additional observations from a re-analysis of the deposited data

How the results depend on the processing

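Direction at 2-fold was kept under pseudocounts of 0.5 and 5, equal library totals and removal of the length and GC trend for Ccl2, Ccl5 and Ccl6 in both comparisons with All-EV. Ccl5 passed the filter through its All-EV level alone, so its kept direction supports nothing. Ccl7 and Ccl9 left the 2-fold genes, and Ccl4 joined them, under the settings given with their values. Of 120 recomputed member ratios, 102 stayed inside their counting interval, 18 lay outside it, and 0 that were 2-fold apart changed sign. The 102 include ratios of Ccl8, Ccl12 and Ccl24, whose intervals are wide, so they do not measure stability. All 18 were ratios to All-EV under equal totals or with the trend removed. Removing the trend put every gene at the filter except Ccl5 outside its interval in both comparisons with All-EV. For Ocn-EV it took Ccl2 from a log2 ratio of −1.94 to −1.32 and Ccl6 from −2.69 to −2.33. Between Ocn-EV and Prx1-EV, a pseudocount of 5 left 1 member 2-fold apart, Ccl9, against 2 as deposited.

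Fewer or more genes tested moved the counts. With a filter of 200, 3 members were tested. Of these, 1 was 2-fold apart from All-EV with Ocn-EV, 2 with Prx1-EV, and 1 between Ocn-EV and Prx1-EV. No filter added Ccl8 to the lower members in both comparisons with All-EV and Ccl12 with Prx1-EV, at up to 21 reads. Over all genes, and with the comparisons in that order, the filter of 200 gave 678, 579 and 8, a filter of 10 gave 1894, 1695 and 429, and no filter gave 4816, 4052 and 2669, against 1159, 972 and 57 at 50. The exact binomial test on reads gave 7177, 7119 and 2872. No paired analysis was possible because each group has 1 library.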

Other observations

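Genes with a pattern like that of the lower chemokines were sought by distance in the plane of the log2 ratios to All-EV (2 ratios from 3 libraries that share 1 control, so likeness is a description). Nearest to Ccl6 was Cd38, an ectoenzyme of leukocytes, at 66.3 with Ocn-EV and 46.2 with Prx1-EV, against 506 with All-EV (distance 0.223). Clmp and Serpinb2 followed at distances of 0.413 and 0.438, and 4 genes lay within 0.5. For Ccl5 no gene lay within 0.5, and the nearest were Tarm1, Bst1 and Serpinb9b at 1.12, 1.30 and 1.35. Ccl5, Ccl7, Tarm1, Serpinb9b and Serpinb2 passed the filter through their All-EV level alone, so their likeness was partly built into passing. The position of Ccl5 rests on 4 reads in Ocn-EV and 13 in Prx1-EV. Tarm1, an activating receptor of myeloid cells, stood at 4.14 with Ocn-EV and 3.49 with Prx1-EV, against 194 with All-EV. Ccl2 lay near Rps27a, Ccrl2 and Ptgr1 (distances 0.0774, 0.0936 and 0.101), with 43 genes within 0.5. Ccl7 lay near Itgam, Snhg16 and Phospho1 (0.0284, 0.0535 and 0.0634), with 134 genes within 0.5. The genes searched were drawn from the 11067 at the filter, and nothing is read from these counts.

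The chromosome 11 genes fall into a stretch of 81.2 kb with Ccl2, Ccl7, Ccl12 and Ccl8 and a stretch of 139 kb with Ccl5, Ccl9, Ccl6, Ccl3 and Ccl4. Within 250 kb of the second, Ap2b1, Taf15 and Heatr6 reached the filter and were not 2-fold apart in either comparison with All-EV. Wfdc17, also within that distance, which encodes a small secreted protein of activated macrophages, stood at 328 with Ocn-EV and 335 with Prx1-EV, against 828 with All-EV. In the second stretch Ccl5 and Ccl6 were lower than in All-EV and Ccl3 and Ccl4 higher, so its genes did not all share a direction. Ccl9, between Ccl5 and Ccl6, was lower with Prx1-EV (log2 −1.17) and had no clear direction with Ocn-EV. With Prx1-EV the direction thus changed only between Ccl6 and Ccl3, 54756 bases apart. No other gene within 250 kb of the first stretch reached the filter.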
